A study of Mus with 4 samples.

Results

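The transcript profile of *WT* nephron progenitor cells was read from the channels of 4 dual-colour Agilent arrays that held *WT* RNA. These are 5 of the 8 channels of the series: Cy5 (red) of arrays 1, 2, 3 and 4, and Cy3 (green) of array 4. Each channel gave a signal for 41174 probes, of which 22951 (55.7%) could be given 1 of 16358 gene symbols. All *WT* cells were GFP+ cells isolated by FACS at embryonic day 15.5 from kidneys of Six2 CreEGFP+ embryos with an intact PRR+/+ gene. They carry the *Six2*-driven Cre and GFP transgene just as the *Mut* cells do, so that GFP marks cells in which the transgene is or was active, and the cells of several kidneys make up a pool. *WT* pools 1, 2 and 3 lay in Cy5 on arrays 1, 2 and 3, each beside a *Mut* pool in Cy3 (*Six2* Cre with PRR flox/flox), of which no values are given here. On array 4, RNA labelled *WT* pool 1 was hybridized in Cy5, beside RNA labelled *WT* pool 2 in Cy3. The question was which genes were bright, moderate or not detected in these cells, and how far arrays 1 to 3 and array 4 gave the same picture.

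Nephron progenitors are the mesenchymal cells that cap each tip of the branching ureteric bud. Under the control of transcription factors such as *Six2* they renew themselves, and in response to Wnt signals from the bud some of them turn into epithelium and form the renal vesicle, the first stage of a nephron. Around them lie stromal progenitors, vessels and blood cells, whose transcripts can be present in a sorted fraction as well. In bulk RNA, fewer cells of a type and less RNA per cell cannot be told apart.

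A probe's signal is its median spot intensity minus the median local background, in the scanner's intensity units. By this signal and the scanner program's own test, a probe was called bright (well above background on all of arrays 1 to 3 and in the top 10% of the median signal, at a border of 1132), moderate (well above background on all 3), partly detected (on 1 or 2) or not well above background (on none). In the Cy5 channels 54.1% to 58.3% of probes passed that test and in Cy3 of array 4 51.1% did, as did none of the 153 negative control spots. No spot was saturated. Different probes bind their targets with different efficiency, so that a class describes a probe and sets no order of transcripts between genes. A gene was given by its probe with the highest mean Cy5 signal on arrays 1 to 3. Array 4 stood apart from arrays 1 to 3. The RNA labelled pool 1 differed by more than 1.5-fold between arrays 1 and 4 at 581 probes (1.41%), whereas any 2 of the pools on arrays 1 to 3 were that far apart at 82 to 105 probes. This gap narrowed under other processing, as is given with the pairs of arrays. All classes below therefore rest on arrays 1 to 3, and array 4 is set beside them.

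Nephron progenitor markers were readily measured in the sorted cells. Of the 6 markers of this cell type, 5 were bright (*Six2*, *Cited1*, *Eya1*, *Osr1* and *Aldh1a2*) and *Sall1* was moderate, in all of arrays 1 to 3, and array 4 gave each of them the same class in Cy5. *Six2*, the transcription factor whose regulatory sequence also drives the transgene, had a signal of 1629, 1398 and 1919.5 on arrays 1, 2 and 3, and on array 4 of 1400 in Cy5 and 918 in Cy3. *Cited1*, a transcriptional cofactor of the least differentiated progenitors, gave 4074, 3881 and 4862, and then 4018 and 2407.5. *Eya1*, which encodes the phosphatase partner of Six2, gave 4759, 5163.5 and 6479.5, and then 5721 and 3771. For each of these 3 genes array 4 in Cy5 lay within or close to the range of the other arrays, and the Cy3 value was the lowest of the 5. *Osr1*, a zinc finger factor of the intermediate mesoderm, gave 2431.5, 1855.5 and 2487.5, and then 1898 and 1226.5. *Sall1*, another zinc finger factor of the progenitors, gave 172, 139 and 210, and then 171 and 133. *Aldh1a2*, an enzyme of retinoic acid synthesis, gave 16434, 14507.5 and 17273, and then 14350 and 9341. Cy3 and Cy5 signals are not on one scale: the border of the top 10% was 1123.9 in Cy5 and 722 in Cy3 of array 4, and in Cy3 too 5 of the markers were above it.

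**Figure D1:**
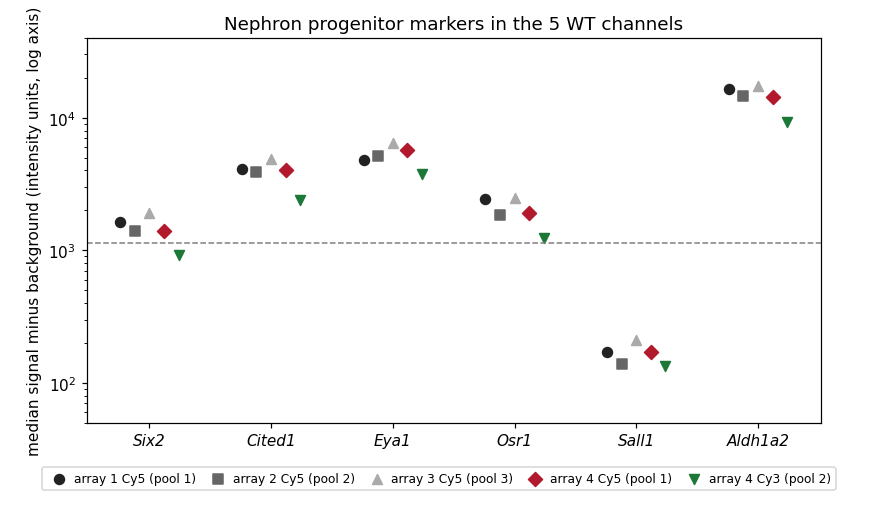
Signal minus background (intensity units, log axis) of 6 nephron progenitor markers in each of the 5 *WT* channels, with 1 point per channel; the dashed line is the border of the bright class on arrays 1 to 3. *Six2*, *Cited1*, *Eya1*, *Osr1* and *Aldh1a2* lie above 1132 in all 4 Cy5 channels and *Sall1* lies between 139 and 210 there.

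After quantile normalization of the 4 Cy5 channels, the markers differed in their spread over arrays 1 to 3. The median SD there was 0.064 for all bright probes and 0.07 for moderate ones. *Six2* had a mean log2 signal of 10.71 ± 0.09 (SD, n = 3) on arrays 1 to 3 and 10.55 on array 4, and *Cited1* of 12.06 ± 0.04 and 12.04. *Osr1* had the widest SD of the 6 markers, 0.18. In the limma fit of array 4 against arrays 1 to 3, described below, the log2 differences of the 6 ran from -0.19 for *Osr1* to 0.11 for *Eya1*.

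Other transcription factors of the cap mesenchyme were nearly all detected. Of 21 measured, 10 were bright, 10 moderate and 1 was not well above background. *Wt1*, a zinc finger factor required for the kidney to form, was bright at 3183, 3161 and 4006 on arrays 1, 2 and 3. *Foxc1* was bright at 3371, 3941.5 and 4729, and its relative *Foxc2* at 1842.5, 1798 and 2133. *Pax2* was moderate by its class but dim, at 34.8, 35.3 and 39.4, and *Six4* gave 57, 54 and 78.5. *Meox1*, a homeobox gene of the cap, gave 1194, 1207 and 1356.5 on arrays 1 to 3 and 723 on array 4. Its 2 probes fell by 0.68 and 0.57 on the log2 scale on array 4. Only the first of them passed the 1.5-fold minimum and was called, and that call was lost under several other settings given below.

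Hox genes, which give cells their position along the body axis, were detected in most paralogue groups. Of 37 Hox genes measured, 14 were bright, 15 moderate, 1 partly detected and 7 not well above background. Among the paralogue groups 9 to 11, all 9 genes were detected on arrays 1 to 3, of which 7 were bright, and *Hoxa10*, *Hoxa11* and *Hoxc9* had median signals of 2131.5, 2182 and 3647.5. Of the 6 genes of groups 12 and 13, at the posterior end of the clusters, 5 were not well above background and *Hoxd12* was moderate at 42. The groups 5 to 8 held 5 bright and 5 moderate genes of 10. In groups 1 to 4, 2 of 12 genes were bright (*Hoxb2* and *Hoxd4*), 7 moderate and 2 not well above background.

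The ligands by which the cap signals to itself and to the bud were mostly detected but seldom bright. Of 11 listed, 3 were bright, 6 moderate and 2 partly detected. *Bmp7*, a growth factor that maintains progenitors, gave 4597, 4419 and 5615. *Igf2*, the fetal insulin-like growth factor, gave 17032.5, 16279 and 20947, and *Vegfa*, which attracts vessels, 1312.5, 1335.5 and 1858. On array 4 all 3 bright ligands differed from their mean on arrays 1 to 3 by 0.18 or less on the log2 scale. *Gdnf*, the signal that draws out the ureteric bud, was moderate at 98, 130.5 and 177, and *Fgf20* at 342, 387 and 476. *Fgf9*, a further FGF of the niche, was at 25, 25 and 37 and only partly detected, as was *Fgf2*. All 17 receptors and adhesion genes listed were detected on arrays 1 to 3. Bright among them were *Itga8* (integrin alpha 8, at 1535, 1582 and 2002.5), *Fgfr1*, *Cdh11*, the glypican *Gpc3* and the Wnt receptor *Fzd2*, at 7357, 6810 and 8928.

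Over the whole families, receptors were detected at a larger share of genes than ligands, which is a description of these probes and was not tested. Of 19 Wnt ligand genes none was bright and 5 (26.3%) were moderate: *Wnt2*, *Wnt4*, *Wnt5b*, *Wnt9a* and *Wnt11*. Of 9 frizzled receptor genes 8 (88.9%) were detected, with *Fzd2* and *Fzd4* bright. Of 20 FGF ligand genes 7 (35.0%) were moderate and none bright. All 6 genes whose symbol begins like an FGF receptor were detected, 1 of them (*Fgfr1op2*) not a receptor.

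Among further genes of the cap, *Crym*, which encodes a thyroid hormone binding protein, was bright at 22903.5, 22097 and 27498.5 on arrays 1 to 3. The FGF feedback genes *Dusp6* and *Spry1* were bright as well, with median signals of 3585.5 and 1915.5, and so was *Amph*, which encodes amphiphysin, at 3693. *Lin28b*, an RNA-binding regulator of developmental timing, was not well above background at both of its probes, and neither was *Spry2*. In all, 11 of these 13 genes were detected on arrays 1 to 3.

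Genes of the next stages of the nephron were mostly moderate. Of 17 early nephron genes, 14 were moderate and 1, *Sfrp2*, a secreted Wnt modulator, was bright. *Wnt4*, the inducer of the renal vesicle, gave 530, 428 and 551.5 on arrays 1 to 3, and *Lhx1*, a homeobox gene of the vesicle, 331.8, 301.3 and 394.6. *Pax8* gave 115, 110 and 137. *Pou3f3* and *Irx1*, markers of the later S-shaped body, were not well above background.

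Genes of differentiated nephron segments were detected in part. Of 8 podocyte genes, 1 was bright, 3 moderate, 1 partly detected and 3 not well above background. *Nphs1* and *Podxl*, which encode nephrin and podocalyxin, were not well above background on any of arrays 1 to 3. *Cdkn1c*, a cell cycle inhibitor on the same list, was bright at 14423.5, 14175.5 and 18008. *Ptpro*, a receptor phosphatase of podocytes, was moderate at 216, 239 and 300, although its second probe was not well above background, and *Tcf21* was moderate at 635, 630 and 763. Of 9 tubule genes 4 were moderate (*Slc12a1*, *Umod*, *Aqp1* and *Cdh16*), 1 was partly detected, 4 were not well above background and none was bright, and *Cdh16* had a median signal of 311.

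Markers of neighbouring cell types were not all absent. For the ureteric bud, the receptor *Ret* and the factor *Tfap2b* were not well above background, *Cdh1* (E-cadherin), *Wnt9b* and *Wnt7b* were partly detected, and *Hoxb7* and *Slit2* were bright. In all 11 of 17 bud genes were detected, and their summed signal was 5987 to 7614.5 on arrays 1 to 3 and 6163 on array 4. Such sums, here and below, add signals not normalized between arrays, and 1 bright probe can dominate them. Array 3, the brightest, gave the upper value of each range. Its top 10% of probes began at 1358, against 1097.4, 1066 and 1123.9 in Cy5 of arrays 1, 2 and 4. Stromal genes were detected for 14 of 17. *Foxd1*, the defining factor of stromal progenitors, was bright at 2608, 2591.5 and 3101 on arrays 1 to 3, with 2007.5 on array 4. *Col1a1*, *Col1a2*, *Col3a1* and *Acta2* were bright too, while *Tbx18* was partly detected and *Ren1* and *Nr2f1* were not well above background. A further probe each of *Col3a1* and *Acta2* was not well above background, at median signals of 24 and 15.5. Those of *Col1a1* were moderate, at 229 and 47. The summed stromal signal was 18944 to 24188 on arrays 1 to 3 and 22249.5 on array 4. Their part in the other values was not tested.

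Endothelial markers were detected for 6 of 14, none of them bright. Of the defining ones, *Pecam1*, *Tie1*, *Erg* and *Sox18* were not well above background, *Cdh5* was partly detected, and the VEGF receptor *Kdr* was dim at 37.7, 34.4 and 35.9. Another VEGF receptor, *Flt1*, was moderate at 187, 185 and 210, with a second probe not well above background, and *Egfl7* was moderate at 517, 531 and 632.5. The endothelial sum was 1366.5 to 1634 on arrays 1 to 3 and 1296 on array 4. Of 12 macrophage and leukocyte genes 9 were detected, at median signals of up to 196 (*Lyz2*), but *Ptprc* (CD45) was not well above background. Their sum was 757 to 973 on arrays 1 to 3 and 626.5 on array 4. Of 9 neural genes 4 were moderate, with *Elavl4* at 944, 932.5 and 1222.5, and their sum was 1148 to 1482 on arrays 1 to 3 and 1383 on array 4. Of 11 erythroid genes the alpha globin *Hba-a1* was bright and *Alas2* moderate, while *Epb42*, *Gata1* and the embryonic globins *Hba-x* and *Hbb-bh1* were not well above background. The erythroid sum was 1851 to 2601 on arrays 1 to 3 and 5281 on array 4, of which *Hba-a1* alone gave 1702.5 to 2383 and 4973. *Hbb-bt*, the adult beta globin, is not on that list, and its 4 probes were all bright.

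**Figure D2:**
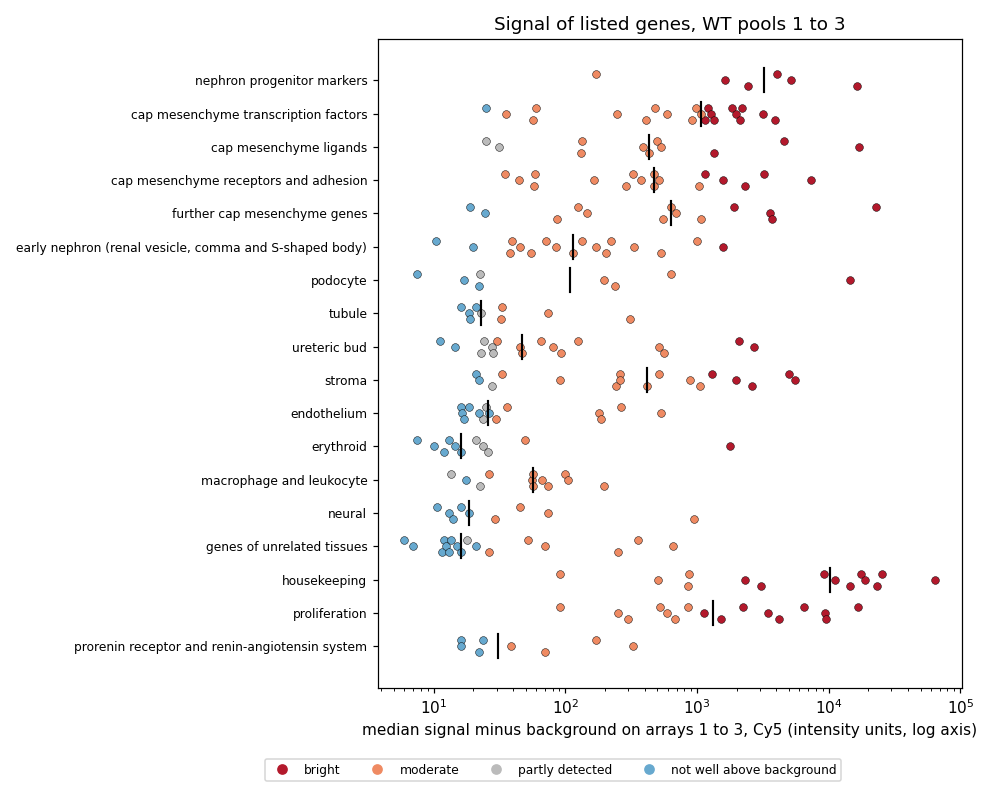
Median signal minus background over arrays 1 to 3 in Cy5 (intensity units, log axis) of each gene on 18 lists of cell types and functions; each point is 1 gene, coloured by its class, and the black bar is the median of the list. The medians are 3253 for nephron progenitor markers, 1065 for cap transcription factors, 115 for early nephron genes, 25.8 for endothelium and 16.0 for erythroid genes.

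The bounds of the scale were set by genes that nearly every cell uses and by genes of other organs. All 14 housekeeping genes were detected, 10 of them bright, and all 16 proliferation genes were detected, 9 of them bright. *Mcm6*, a subunit of the replicative helicase, gave 15985, 16663 and 19815.5, and *Top2a*, which untangles replicated DNA, 966.5, 1137.5 and 1548.5. Of 17 genes of unrelated tissues none was bright and 10 were not well above background, among them *Alb*, *Gcg*, *Myh6* and *Csn2*. *Krt10*, *Lor* and *Pomc*, of skin and pituitary, were nevertheless moderate, at median signals of 654.5, 359 and 253, and so were *Prm1*, *Prm2* and *Ins2*. Over all 16358 genes, 2912 (17.8%) were bright, 7668 (46.9%) moderate, 863 (5.28%) partly detected and 4915 (30.0%) not well above background.

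Gene families differed in how many of their genes were detected. Cytosolic ribosomal protein genes were bright in 79 of 82 cases, and the other 3 included *Rpl3l* and *Rpl39l*, tissue-restricted relatives, which were not well above background. Respiratory chain genes were detected in 94.3% of 87 cases and proteasome genes in 94.7% of 38. The respiratory chain genes that were not well above background were *Cox4i2*, *Cox6a2*, *Cox7b2*, *Cox8b* and *Cox8c*, all isoforms known from particular tissues. Among 46 splicing genes, all were detected. At the other end, 17 of 884 olfactory receptor genes (1.92%) were moderate and none bright, and 3 of 121 vomeronasal receptor genes (2.48%) were moderate. Cytochrome P450 genes were detected in 23.6% of 72 cases, interleukins and their receptors in 20.8% of 77, and chemokines and their receptors in 14.6% of 48. *Cxcl12*, the chemokine of many embryonic mesenchymes, was the only bright gene of that family, with a median signal of 3257, and *Il11ra1* the only bright one of the interleukin family, at 7097.5. Collagen genes were detected in 81.6% of 38 cases, with *Col26a1* at 12640.5 among the bright ones, against 28.6% of 35 keratin genes.

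**Figure D3:**
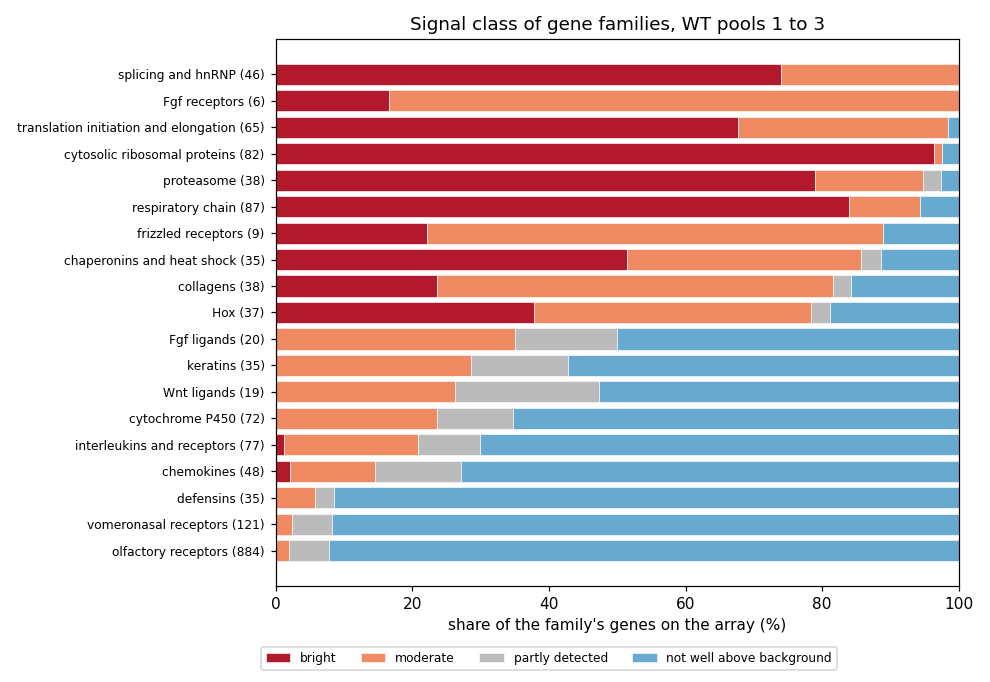
Share of the genes of 19 families in each signal class on arrays 1 to 3 (%), with the number of genes measured in brackets. Ribosomal protein, respiratory chain and proteasome genes are mostly bright, and over 90% of the olfactory receptor, vomeronasal receptor and defensin genes were not well above background (92.2%, 91.7% and 91.4%).

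The signal was concentrated in few probes. The 100 brightest probes carried between 22.5% and 23.9% of the whole signal in the Cy5 channels and 19.1% in Cy3 of array 4. Of the 100 brightest genes, 58 encode cytosolic ribosomal proteins. The 10 brightest probes with a symbol included those of *Pigt*, *Rpl41*, *Rps18*, *Rpl7a*, *Rps23*, *Rpl37a*, *Rps28* (2 probes) and *Rplp1*. For *Rpl41* the signal was 142162, 142338 and 158611 on arrays 1, 2 and 3, and 147140 in Cy5 of array 4. *Pigt*, an enzyme subunit that attaches membrane anchors, is the one gene among them outside the ribosome, with 110306, 152890.5 and 188947.5. Its second probe had a median signal of 68.5. Ribosomal protein genes have many near-identical pseudogene copies, and whether the probes separate these was not tested.

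That discrepancy was not unique. Of 5305 genes with several probes, 3197 (60.3%) had all probes in the same class, 704 (13.3%) were detected at 1 probe but not well above background at another, and 40 (0.754%) were bright at 1 and not well above background at another. Among the 3279 genes with all probes detected, the brightest probe exceeded the dimmest by a median of 3.53-fold, and by more than 10-fold in 20.2% of these genes. A class of not well above background therefore speaks of the probe. Probes without a gene symbol were not well above background in 54.2% of cases, those with a symbol in 29.6%.

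The classes were stable between hybridizations. Of 4113 bright probes, 3908 were also bright in Cy5 on array 4, the other 205 were moderate and none was lost. Of 17754 moderate probes, 97.7% were moderate there and 1.11% were not well above background. Of 16681 probes not well above background on arrays 1 to 3, 16116 (96.6%) were not on array 4 either. Probes partly detected on arrays 1 to 3 divided almost evenly, with 53.0% moderate and 46.9% not well above background on array 4. In Cy3 of array 4, 94.7% of the bright probes were bright and all others moderate, while 8.97% of the moderate ones were not well above background. The lists of the 100 brightest genes shared 98 genes between arrays 1 to 3 and Cy5 of array 4, and 95 with Cy3. Any pair of the 5 channels placed between 37043 and 39441 of the probes in the same class.

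Sizes of signal were compared over pairs of arrays. In Cy5, the number of probes over 1.5-fold apart was 82 between arrays 1 and 2, 105 between 1 and 3 and 93 between 2 and 3, and for array 4 against arrays 1, 2 and 3 it was 581, 441 and 448. Without the offset of the background correction, the counts were 6060 to 6762 within arrays 1 to 3 and 7380 to 8372 with array 4. With centring on the 75th percentile they were 72, 339 and 343 within arrays 1 to 3 and 565, 416 and 692 with array 4. Of the 581 probes that set array 4 apart from array 1 although both are labelled pool 1, 326 were higher and 255 lower on array 4. Of the higher ones 318 lay on the same side of array 2 and 317 of array 3, and of the lower ones 251 and 252. As arrays 1 to 3 lay close together, a wide gap to array 1 nearly fixes these sides. More than 1.5-fold from both arrays 2 and 3 were 133 of the 326 and 126 of the 255. Cy3 of array 4, labelled pool 2, was within 1.5-fold of its Cy5 after normalization at 323 of the 326 and 253 of the 255, against 99.9% of all probes. Hybridization, labelling and the RNA itself cannot be told apart with 1 such array.

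**Figure D4:**
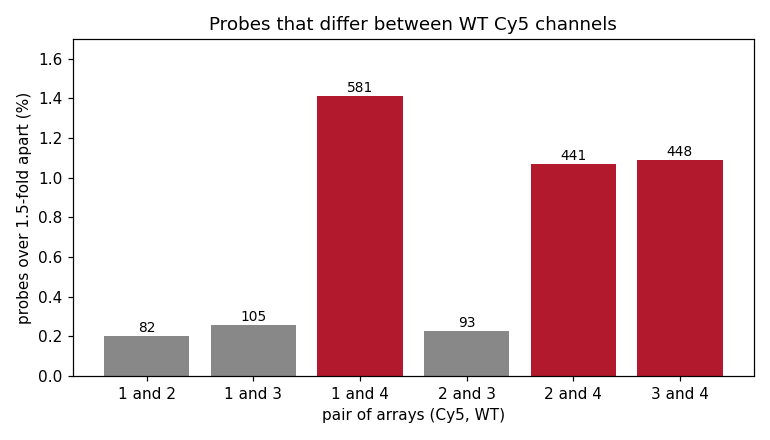
Share of the 41174 probes (%) whose normalized Cy5 signal differed by more than 1.5-fold between the 2 arrays of a pair, with the number of probes above each bar. Pairs within arrays 1 to 3 (grey) hold 82 to 105 such probes and pairs with array 4 (red) 441 to 581.

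A limma fit of array 4 against arrays 1 to 3 gave a test of these differences, in which array 4 is 1 channel assumed to vary like the other 3. Its P values measure the spread between these hybridizations only, and its Cy5 RNA carries the same pool label as that of array 1. At an adjusted P under 0.05 and more than 1.5-fold, 378 of 41174 probes (0.918%) were called, 217 higher (0.527%) and 161 lower (0.391%) on array 4. Array 4 lay outside the range of arrays 1 to 3 at 59.7% of all probes, above it at 29.8% and below it at 29.9%, so that a lack of overlap by itself sets no probe apart. The probes higher on array 4 mostly had no gene symbol (161 of 217), whereas 113 of the 161 lower ones had one. Of the 234 genes on the lists, 7 were called higher and 4 lower, 4.7% of them, against 0.856% of all genes, a description only, since the lists were chosen with results of these arrays known. With 1 of arrays 1 to 3 left out, the fit has 1 residual degree of freedom and few probes can pass: without array 1 it called none higher and none lower, without array 2 none higher and 27 lower, and without array 3 it called 2 higher and 33 lower. Of 21 called probes taken from the lists, the Hox genes and the largest changes, 0, 7 and 8 were still called without array 1, 2 and 3, while all 21 kept their direction and their log2 differences moved by at most 0.15, 0.08 and 0.09. Without the offset of the background correction 0 of the 21 were called, and with centring on the 75th percentile 11 were. As the 21 were picked for a difference over 1.5-fold and array 4 stayed the same throughout, their direction was nearly fixed by the choice.

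**Figure D5:**
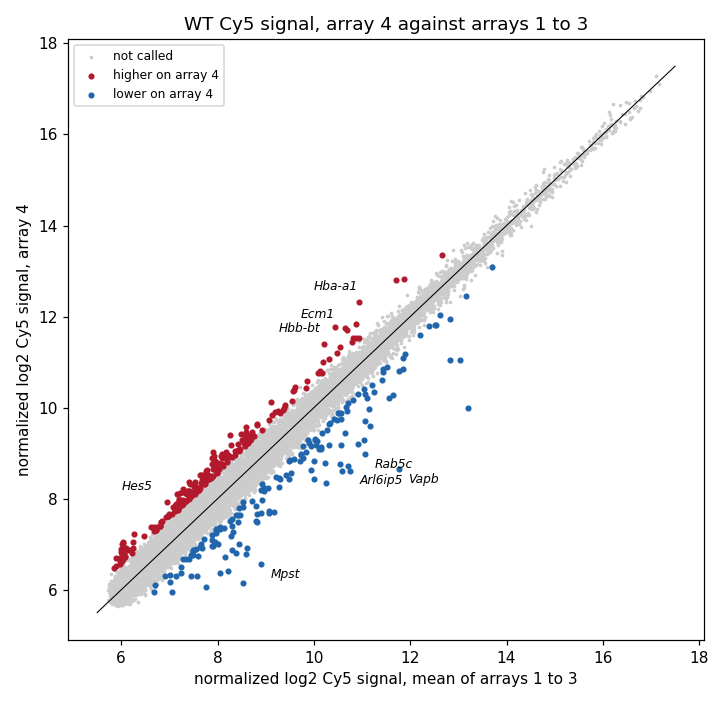
Normalized log2 Cy5 signal of each of 41174 probes, array 4 against the mean of arrays 1 to 3, with probes called higher in red and lower in blue; the line marks equal signal. *Vapb* lies far below the line, at a log2 difference of -3.12, and *Hba-a1* farthest above it, at 1.38.

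*Vapb*, *Mpst*, *Arl6ip5* and *Rab5c* were among the largest falls on array 4. *Vapb*, a membrane protein of the endoplasmic reticulum, had a signal of 2860, 3286 and 4450 on arrays 1, 2 and 3, and on array 4 of 337 in Cy5 and 281.5 in Cy3, a log2 difference of -3.12 (SE 0.122, adjusted P = 1.01e-06, limma). Its 2 other probes, with median signals of 233.5 and 195, differed by -0.17 and 0.03 and were not called. *Mpst*, a sulfur transferase, gave 424.5, 399.5 and 480.5 and then 42.5 in Cy5, and in Cy3 it was not well above background. *Arl6ip5* and *Rab5c*, genes of membrane traffic, each with 1 probe, differed by -2.14 and -2.09. Both channels of array 4 were low at these 4 genes.

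Of 37 Hox genes measured, *Hoxb8* and *Hoxd4* were called lower on array 4 and none higher, against 0.562% and 0.293% of all genes. This is a description only, as the 2 were named after their values were seen. *Hoxb8* gave 280, 293 and 400 on arrays 1 to 3 and was not well above background on array 4, at 18.5 in Cy5 and 44 in Cy3, so that it was at least 5.22-fold lower there (adjusted P = 1.01e-06, limma). A second *Hoxb8* probe, well above background on 1 of arrays 1 to 3, differed by -0.33 and was not called. *Hoxd4* gave 1756, 2019 and 2507 and then 553 and 381, a log2 difference of -1.75. On the lists *Meox1*, *Slc12a1*, the cotransporter of the thick ascending limb, and *Tagln*, a smooth muscle protein, were among those lower on array 4. *Tagln* gave 883.5, 787.5 and 959 and then 458, and *Slc12a1*, at 65.5, 73.5 and 92.5, was not well above background on array 4, which makes it at least 1.8-fold lower.

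The rises on array 4 were smaller, and globin genes led them. *Hba-a1* had a signal of 1702.5, 1797 and 2383 on arrays 1, 2 and 3, and on array 4 of 4973 in Cy5 and 2599 in Cy3, a log2 difference of 1.38 (SE 0.100, adjusted P = 4.45e-05, limma). All 4 probes of *Hbb-bt* were called higher, by 0.80 to 1.18 on the log2 scale. The embryonic globin *Hbb-y*, at 3, 21 and 28.5 on arrays 1 to 3 and 68 on array 4, was well above background on only 1 of arrays 1 to 3, so that no size of its difference is given. The red cell genes *Epb42* and *Gata1*, not well above background on any of arrays 1 to 3, stayed at or under 20 in all Cy5 channels, where small changes cannot be read. Of the 11 erythroid genes 5 were well above background in Cy5 of array 4, while only *Hba-a1* and *Alas2* were so on all of arrays 1 to 3. The median log2 difference of the 11 was 0.07, against -0.01 over all genes. *Ecm1*, which encodes an extracellular matrix protein, gave 1319.5, 1529 and 2061.5 and then 3183, but its second probe differed by only 0.07.

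Among early nephron genes, 4 of 17 were called higher on array 4 and none lower, against 0.293% and 0.562% of all genes. *Hes5*, a Notch target, gave 71.5, 61.5 and 84 on arrays 1 to 3 and 183.5 on array 4, a log2 difference of 0.97 (SE 0.094, adjusted P = 0.000425, limma). *Lhx1* rose from 331.8, 301.3 and 394.6 to 639.3, by 0.88 on the log2 scale. *Jag1*, a Notch ligand, and *Ccnd1*, which encodes cyclin D1, were higher by 0.70 and 0.68, and the second probe of *Jag1* was not well above background on arrays 1 to 3. None of the 4 was called without the offset (adjusted P from 0.28 to 0.301, limma) or with 1 of arrays 1 to 3 left out (0.0911 to 0.209), and only *Hes5* was with centring on the 75th percentile (0.0408). All 4 log2 differences stayed above 0 under these settings, which their choice as called genes nearly fixed. *Wnt4* and *Fgf8* differed by 0.45 and 0.38 and were not called (adjusted P = 0.0675 and 0.0593, limma).

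Housekeeping, proliferation, ligand and receptor genes held no call, which is near the background of 0.856% of all genes for lists of this size. The median log2 difference between array 4 and arrays 1 to 3 was 0.03 for 14 housekeeping genes, 0.08 for 16 proliferation genes, -0.01 for 11 ligands and -0.22 for 17 receptors and adhesion genes, against -0.01 over all genes. None of the 82 ribosomal protein genes was called either, again close to that share.

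The gene that the study deletes in *Mut* cells, *Atp6ap2*, which encodes the prorenin receptor (PRR), was moderate in *WT* cells, at 275.5, 329 and 386 on arrays 1, 2 and 3 and 288 in Cy5 of array 4. Most other genes measured of the renin-angiotensin system were dim. *Ren1*, *Agt*, *Ace* and *Mas1* were not well above background on any of arrays 1 to 3. The angiotensin receptors *Agtr1a* and *Agtr2* were moderate at median signals of 38.5 and 70.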

How the data were processed

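RNA of FACS-isolated cells was hybridized to dual-colour Agilent arrays, and array, pool and dye were read from GEO's labels. Scanner files of Agilent Feature Extraction (10.7.3.1 per the file headers) were deposited, with intensity values of each spot that the authors had not normalized. Their log ratios and the table of the series were not used, and the *Mut* channels entered only the alternative with loess and Aquantile, which normalizes both channels of an array together. Control spots and outlier spots (67 to 106 per channel) were left out of all signals and tests, though they entered the fit of the background correction. Replicate spots of 1 probe were averaged. Symbols were matched through accessions to RefSeq genes of GRCm38.p6. The listed genes *Hoxc11*, *Synpo*, *Magi2*, *Lrp2*, *Cubn*, *Fxyd2*, *Csf1r*, *Sox10*, *Gapdh* and *Mki67* had no match.

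To compare arrays, Cy5 signals went through normexp (offset 50) and quantile normalization. limma 3.58.1 (R 4.3.3) was then fitted to 41174 probes by lmFit and eBayes, and P values were adjusted by Benjamini-Hochberg. On array 2, 2 spots more than 50 units below their local background were left out, a choice made after seeing the data. In simulated data, limma recovered 177 of 200 probes (88.5%) changed by 1 on the log2 scale on array 4, with 6 false calls. There array 4 was drawn with the same spread as arrays 1 to 3, whereas in the data it stood farther apart. The simulation therefore cannot tell how many of the calls on array 4 are false. Precision is limited by how few arrays there are, and no label says that the pools came from separate litters. Alternatives changed the background correction, normalization, filters and arrays used.

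The members and lists were chosen with earlier results of these data known. Genes named are those of the lists, the 10 brightest probes, the 5 largest rises and falls on array 4 (called, with a symbol, well above background on all 4 arrays) and the 5 widest spreads over arrays 1 to 3. Members of families given by name were chosen after their values were seen. The results of some genes under these rules are not reported here.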

Additional observations from a re-analysis of the deposited data

How the results depend on the processing

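Of the classes, the partly detected one was the least stable. It held 2626 probes, 7881 when detection was set at the 95th percentile of the negative control spots, and between 1512 and 2150 when 1 of arrays 1 to 3 was left out. Probes not well above background numbered 16681, or 8165 under that percentile. The calls of array 4 against arrays 1 to 3 (217 higher and 161 lower) became 0 and 0 without the normexp offset (4905 probes at an unadjusted P under 0.05), 20 and 56 with centring on the 75th percentile, 640 and 440 with no fold minimum, and 135 higher with loess and Aquantile. Leaving out 1 of arrays 1 to 3 gave 0 to 2 higher and 0 to 33 lower. Fitting normexp on all spots, chosen after seeing the data, gave 168 and 152. RNA labelled *WT* pool 1 differed between arrays 4 and 1 at 581 probes, or 8372 without the offset, where pairs within arrays 1 to 3 (82 to 105) also rose, to between 6060 and 6762. The log2 difference of *Cited1* (-0.02) lay between -0.03 and 0.00 when 1 of arrays 1 to 3 was left out, and that of *Sall1* (0.04) between -0.02 and 0.08. The cause of these shifts was not tested. Of 21 called probes taken from the lists, the Hox genes and the largest changes, none changed its direction under any alternative in which it was tested, and 0 were called without the offset and 11 with 75th percentile centring. As the 21 were picked for a difference over 1.5-fold and array 4 stayed in every alternative, their direction was nearly fixed by the choice. No paired analysis was possible because array 4 is the only array of its group. Signal over background limits what the classes show: a dim probe below the border can still have a target, and differences near background are compressed by the offset.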

Other observations

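The 5 probes with the widest spread over arrays 1 to 3 were those of *Grn*, *Igsf5*, *Usp29*, *Gpr85* and *Mia*, all of the moderate class. *Grn*, which encodes progranulin, had a signal of 353, 770 and 320 on arrays 1, 2 and 3, and 265.5 in Cy5 of array 4. *Usp29*, an imprinted gene, gave 152, 417 and 504, with array 1 the low one. *Igsf5* gave 76.5, 60 and 274.5, *Gpr85* 30, 25 and 150.5, and *Mia* 36, 29 and 150. At these 3 genes array 3 was the high one, and in Cy5 of array 4 they gave 120.5, 18 and 45.

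Of 48 genes called lower on array 4 that had more than 1 probe, 38 were called at 1 probe, 10 at 2 or more and 9 of these at every probe. Of 17 such genes called higher, 15 were called at 1 probe and 2 at every probe.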
